A study of Mus musculus with 19 samples.

Results

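The interferon-stimulated genes described here are 37 mouse genes whose transcription is induced by interferons, taken by gene symbol from a list. They are 37 of 22101 genes listed over the 4 deposited expression tables. The tables of naive B cells and of antibody-secreting cells from spleen and bone marrow list all 37, and the germinal centre table lists 35, without Oas2 and Ifi44. A gene that a table does not list was not counted as 0.

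Interferons are cytokines that cells release after sensing viral nucleic acids and that immune cells release during activation. Type I interferons bind the receptor chains Ifnar1 and Ifnar2, whose kinases activate the factor ISGF3, which holds Stat2 and Irf9. ISGF3 binds the interferon-stimulated response element in promoters, while interferon gamma acts mainly at gamma-activated sites. The induced genes encode sensors of viral RNA, enzymes and restriction factors that block viral replication, and regulators that raise or end the response, and B cells express many of them.

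The study sequenced RNA from B lineage cells sorted from mice at day 28 after intraperitoneal immunization with sheep red blood cells, a foreign antigen that induces germinal centres and antibody. The 19 libraries form 6 groups. There were 3 libraries of CD138+ antibody-secreting cells from bone marrow and 3 from spleen, all labelled wild type. Splenic germinal centre B cells (CD95+, GL7+) gave 4 libraries labelled Pik3cg knockout and 3 labelled wild type. Naive B cells of the spleen (CD3-, B220+, IgD+) gave 3 labelled knockout and 3 labelled wild type. Pik3cg encodes the p110γ catalytic subunit of phosphoinositide 3-kinase. All groups were immunized, and the sources used here do not give strain, sex, age or the structure of the knockout allele. The labels do not say that the libraries of a group came from separate mice, so the p-values measure the spread between these libraries, which may be technical.

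Depth was 10200000 to 21600000 assigned reads per library, estimated from the smallest step between low values, and expression is given as CPM, a gene's reads scaled to a library total of 1000000. Pik3cg, the targeted gene, was not called lower under the knockout label, and its values overlapped in germinal centre libraries. It had 66, 52.8, 6.55 and 9.04 CPM in germinal centre libraries labelled knockout and 56.5, 34.3 and 19.4 CPM in those labelled wild type (log2 fold change -0.60, SE 0.85, limma adjusted p = 0.696), and 95, 127 and 97.7 CPM in naive libraries labelled knockout and 115, 110.1 and 111 CPM in those labelled wild type (log2 fold change -0.08, SE 0.15, limma adjusted p = 0.935). In the tables of naive and of antibody-secreting cells, HET stands above 9 columns whose sample labels say wild type. The germinal centre libraries labelled wild type also went against their cell label: the summed level of 7 germinal centre B cell markers was 2214 to 3044 CPM in libraries labelled knockout and 245.6 to 287 CPM in these, where Gcsam, Rgs13 and S1pr2 were at 0 in every library. Genotypes are therefore given throughout as labels. Every direction below between germinal centre groups rests on these libraries.

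The response element is the sequence feature shared by most of these promoters. Of the 37 members, 28 matched a promoter in RefSeq (GRCm38.p6, from 250 bases before to 50 after the annotated start). The core of the element, GAAA followed by any 2 bases and GAAA, searched on both strands with overlapping matches allowed, was in a promoter of 16 of the 28 members, against 3.99% of 27025 genes. It was in 5 of the 9 members with a promoter that were called higher in germinal centre libraries labelled knockout, and in 11 of the other 19. Promoter windows of 80 bases are shown for 4 of those 5 genes, because Ifit1, Ifit3 and Phf11b are among the largest changes reported below and Isg15 holds 3 overlapping matches. Capitals mark the core; where it lies on the strand opposite the gene it reads TTTC, any 2 bases, TTTC.
Ifit1: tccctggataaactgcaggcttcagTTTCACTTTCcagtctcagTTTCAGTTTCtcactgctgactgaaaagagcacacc
Ifit3: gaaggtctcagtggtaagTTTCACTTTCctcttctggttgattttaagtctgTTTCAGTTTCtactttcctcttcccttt
Isg15: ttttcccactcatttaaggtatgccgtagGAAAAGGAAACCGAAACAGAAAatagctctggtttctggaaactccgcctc
Phf11b: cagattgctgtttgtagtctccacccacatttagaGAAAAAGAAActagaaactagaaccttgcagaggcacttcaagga
On GRCm38.p6 these windows lie at chr19:34640760-34640839 on the + strand (Ifit1), chr19:34583355-34583434 on the + strand (Ifit3), chr4:156200846-156200925 on the - strand (Isg15) and chr14:59341336-59341415 on the - strand (Phf11b). Each is printed 5′ to 3′ in the direction of its gene. The Ifit1 and Ifit3 windows each hold 2 matches, both on the strand opposite the gene, and the Isg15 and Phf11b matches lie on the gene's strand. For the fifth gene, Trim30a, 1 match lay upstream of 1 annotated start, and 1 match lay just inside the transcript from a second start.

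**Figure D1:**
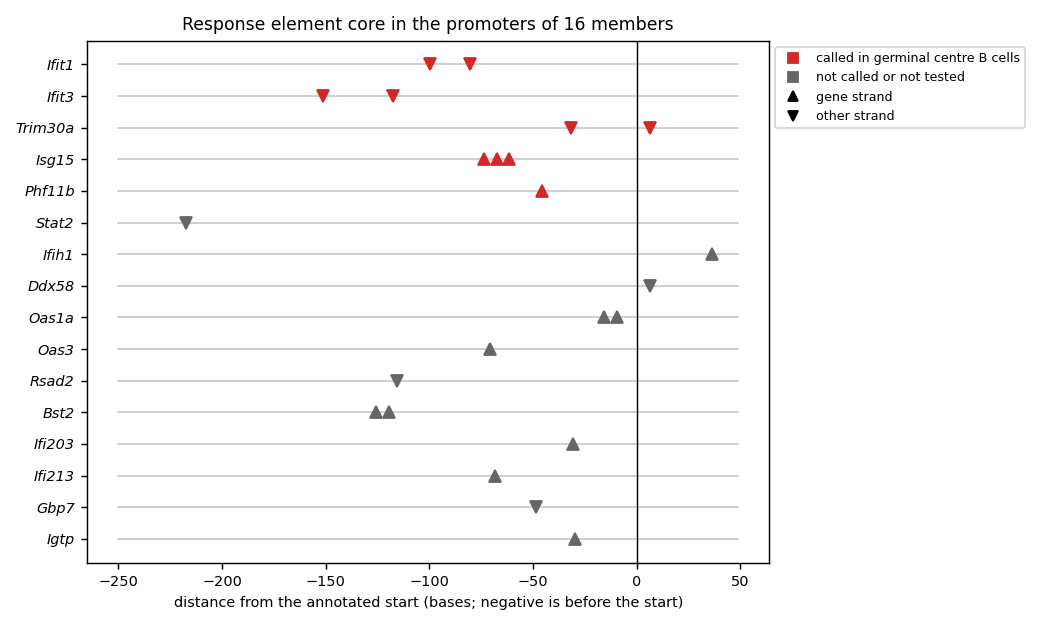
Position of the interferon-stimulated response element core in RefSeq promoters of 16 members. The x axis is the distance in bases from the annotated start, each triangle is 1 match pointing up for the gene's strand and down for the other strand, and red marks the 5 members called in germinal centre B cells. Trim30a has 2 annotated starts drawn on 1 line, and its 2 matches come from different starts.

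In germinal centre B cells, 11 interferon-stimulated genes were higher in libraries labelled knockout than in libraries labelled wild type, and none of those tested was called lower. They were the transcription factor gene Irf7, the Ifit genes Ifit1 and Ifit3, Isg15, Rtp4, Trim30a, Samhd1, Ifi209, Phf11b, Ifi47 and Ifi27l2a, with log2 fold changes of 1.42 to 5.30. Of the 35 listed members, 28 had a mean of at least 10 CPM over the libraries of both labels and were tested. Irf7, Ifit1, Ifit3, Isg15, Rtp4 and Phf11b averaged 0 to 4.10 CPM under the wild type label. They therefore passed this filter only through the libraries labelled knockout, where they were high. Trim30a, Samhd1, Ifi209, Ifi47 and Ifi27l2a averaged above 10 CPM under both labels. The 11 called higher compare with 8.54% of all 8522 genes tested, and 0 called lower with 5.09%. The log2 fold change was positive for 23 of the 28, with a median of 1.06, against a median of 0.03 over all genes tested. Summed over the 35 members listed in every table, the level was 2421 ± 90.7 CPM under the knockout label (n = 4) and 967 ± 35.3 CPM under the wild type label (n = 3) (SD), and these sums did not overlap. By library values, 12 of the 28 were higher without overlap (the 11 and Xaf1), beside 15.6% of all genes, and 0 lower, beside 11.7%.

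Other cell markers moved with this comparison. T cell markers summed to 863 to 1725 CPM under the knockout label and 41.5 to 78.2 CPM under the wild type label, where 6 of 9 (Cd3e, Cd3d, Cd3g, Trbc2, Cd4 and Cd8a) were at 0 in every library. Monocyte and macrophage markers summed to 141 to 1405 CPM under the knockout label and 77.1 to 202 CPM under the wild type label, where 7 of 9 were at 0 in every library. Naive B cell markers ran the other way, at 184 to 511 CPM under the knockout label and 1709 to 2711 CPM under the wild type label, most of it Fcer2a. Plasmacytoid dendritic cell markers summed to 26.5 to 67.5 CPM under the knockout label and 115 to 155 CPM under the wild type label. Of the 3 tested, Cox6a2 alone was called lower (log2 fold change -5.71, limma adjusted p = 0.00283). Pacsin1 gave -0.17 and Bst2, itself a member, gave -0.75, and neither was called. Erythroid markers summed to 29.7 to 2971 CPM under the knockout label and 0.0510 to 2.41 CPM under the wild type label, with 3 of 4 tested called higher, and neutrophil markers to 0 to 221 CPM under the knockout label and 0 to 0.601 CPM under the wild type label. Antibody-secreting cell markers summed to 3762 to 11788 CPM under the knockout label and 6741 to 10986 CPM under the wild type label, and 4 of 7 (Prdm1, Xbp1, Irf4 and Mzb1) were called lower. The part of these markers in the interferon-stimulated gene results below, for every gene group, was not tested. In RNA from sorted pools, fewer cells of a type and less RNA per cell cannot be told apart.

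**Figure D2:**
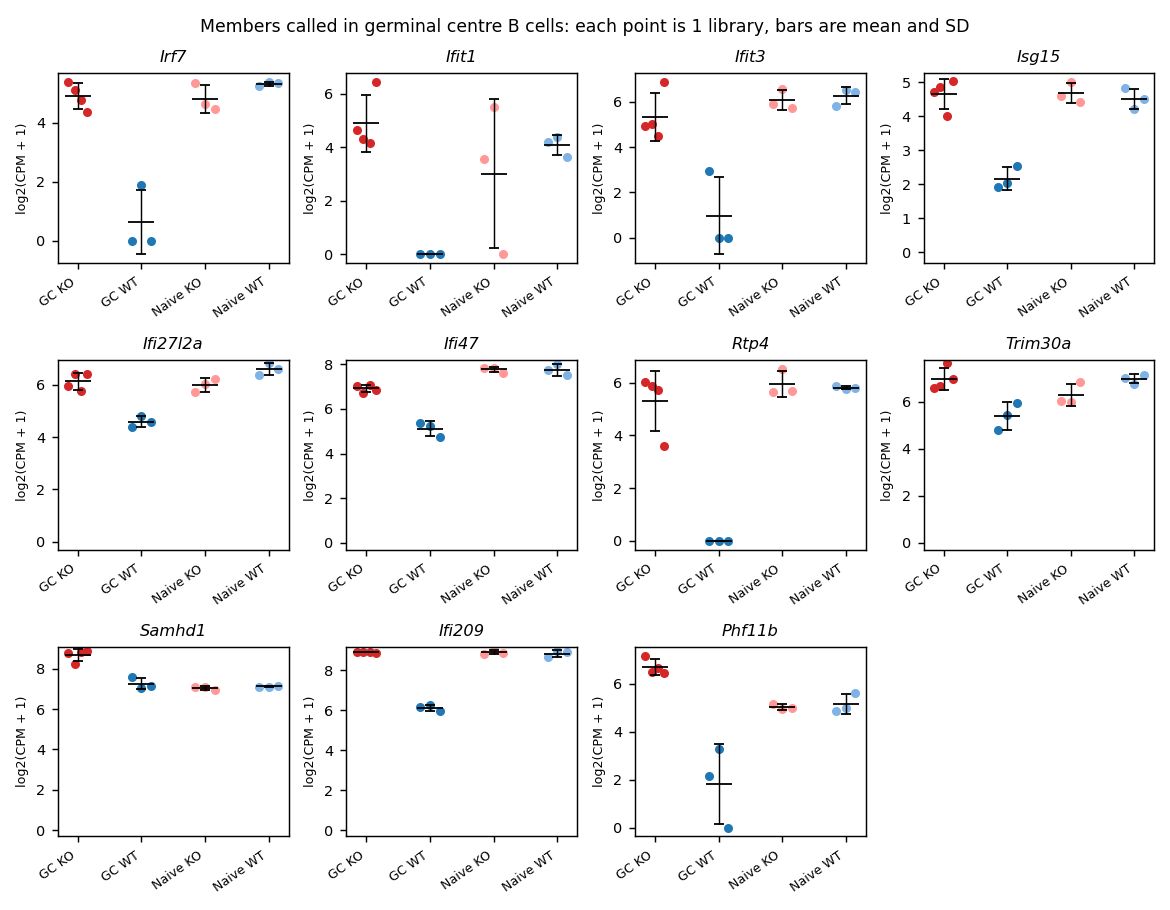
Level of the 11 members called in germinal centre B cells, as log2(CPM + 1) on the y axis, in germinal centre and naive libraries labelled knockout (KO) and wild type (WT). Each point is 1 library and the bars are the mean and SD; in all 11 panels the 4 germinal centre libraries labelled knockout lie above the 3 labelled wild type, while the naive groups overlap or lie close together.

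Among the factors that carry the signal, Irf7, which amplifies the interferon response, had 40.8, 33.8, 26.4 and 19.7 CPM in libraries labelled knockout and 0, 2.7 and 0 CPM in libraries labelled wild type. All libraries labelled knockout were above all labelled wild type, 2 of which were at 0 (log2 fold change 4.29, SE 0.79, limma adjusted p = 0.00811). Irf7 lies at chr7:141262706-141266481 on the - strand, in the mm10 build with GENCODE M21 gene models, which also give the positions that follow. Irf9, the DNA-binding subunit of ISGF3, had 110.0, 119.6, 93.9 and 44.7 CPM in libraries labelled knockout and 36.6, 52.2 and 10.9 CPM in libraries labelled wild type; the lowest library labelled knockout fell within the range of those labelled wild type, and the difference was not called (log2 fold change 1.60, SE 0.55, limma adjusted p = 0.0922). Stat2, another subunit, had 27.1 ± 11.2 CPM in the 4 libraries labelled knockout, against 34.3 ± 11.8 CPM in the 3 labelled wild type (SD), a difference smaller than its spread (log2 fold change -0.39, SE 0.52, limma adjusted p = 0.677).

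The Ifit family includes Ifit1, whose protein binds viral RNA lacking the host's cap marks. Ifit1 (chr19:34640871-34650009, + strand) had 24.2, 18.8, 16.7 and 85.8 CPM in libraries labelled knockout and was listed at 0 in all 3 labelled wild type (log2 fold change 4.89, SE 0.85, limma adjusted p = 0.00624); against a group at 0 the fitted value depends on the pseudocount of 1 and is not a measured fold. Ifit3 (chr19:34583531-34588731, + strand) had 29.5, 31.4, 21.5 and 117 CPM in libraries labelled knockout and 6.7, 0 and 0 CPM in libraries labelled wild type (log2 fold change 4.35, SE 0.97, limma adjusted p = 0.018). In both genes the fourth library labelled knockout stood well above the other three, and all 4 were above every library labelled wild type. Ifit2 had 51, 0, 16.6 and 22 CPM in libraries labelled knockout and 0.463, 0 and 0 CPM in libraries labelled wild type; 1 library labelled knockout was at 0, so the groups overlapped and the difference was not called (log2 fold change 3.41, SE 1.39, limma adjusted p = 0.145). Without that library, knockout-labelled replicate 2, Ifit2 had an adjusted p of 0.0135. The call of Ifit3 was lost without wild-type-labelled replicate 2 (adjusted p = 0.0697) or replicate 3 (adjusted p = 0.0640), and 51.2% of its 50-base exonic sequences also occur in Ifit3b, its close copy, so the split of reads between these genes is uncertain.

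In the 2′-5′ oligoadenylate family, whose products activate the RNA-degrading enzyme RNase L (Oasl2 is a relative), no member was called. Oas1a had 27.1, 0.111, 0 and 9.72 CPM in libraries labelled knockout and 19.9, 11.9 and 6.04 CPM in libraries labelled wild type (log2 fold change -1.54, SE 1.31, limma adjusted p = 0.488); the knockout-labelled values spanned those labelled wild type, and 57.6% of its 50-base exonic sequences are shared with Oas1g. Oasl2 and Oas3 had means under 10 CPM and were not tested. Oasl2 was listed at 15.3, 17.4, 0 and 14.8 CPM in libraries labelled knockout and 0 in each library labelled wild type. Oas3 was at 0 in all 4 libraries labelled knockout and reached 1.12 CPM in 1 of 3 labelled wild type.

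Neither of the cytoplasmic RNA sensors tested was called. Ddx58, which encodes RIG-I, had 28.1, 50.7, 51.8 and 1.52 CPM in libraries labelled knockout and 43.9, 49.4 and 48.6 CPM in libraries labelled wild type (log2 fold change -1.19, SE 0.98, limma adjusted p = 0.472). The fourth library labelled knockout was far below the other three, and without it the log2 fold change was -0.17. Ifih1, which encodes MDA5, had 27.7 ± 21.2 CPM in the 4 libraries labelled knockout, against 9.69 ± 2.01 CPM in the 3 labelled wild type (SD; log2 fold change 0.82, SE 1.00, limma adjusted p = 0.644). Dhx58, their regulator, had a mean under 10 CPM and was not tested.

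Of the other antiviral effectors, Samhd1 and Trim30a were called. Samhd1 (chr2:157097533-157135265, - strand), a phosphohydrolase that depletes deoxynucleotides, had 429, 303, 458 and 467 CPM in libraries labelled knockout and 189, 132 and 139 CPM in libraries labelled wild type (log2 fold change 1.42, SE 0.21, limma adjusted p = 0.00263). Trim30a (chr7:104409025-104465193, - strand), a mouse tripartite motif protein that restrains NF-κB signalling, had 97, 101, 199.1 and 123.96 CPM in libraries labelled knockout and 26.8, 42.2 and 61.4 CPM in libraries labelled wild type (log2 fold change 1.58, SE 0.36, limma adjusted p = 0.0198). In both genes the groups did not overlap. Trim30a was not called without wild-type-labelled replicate 1 or 2 (adjusted p = 0.0687 in each case). Isg20, an RNA exonuclease, the tetherin gene Bst2 and the nucleic acid sensor gene Zbp1 were tested and not called, with log2 fold changes of 0.63, -0.75 and 0.97. Mx1 and Rsad2 were not tested, and Mx1 was at 0 in every library labelled wild type and in 2 of 4 labelled knockout.

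In the Isg15 system and among other regulators, Isg15 and Rtp4 were called. Isg15 (chr4:156199424-156200818, - strand), a ubiquitin-like modifier, had 25, 27.8, 15.2 and 32.1 CPM in libraries labelled knockout and 2.82, 3.09 and 4.84 CPM in libraries labelled wild type (log2 fold change 2.48, SE 0.61, limma adjusted p = 0.0277). Every library labelled knockout was at least 3 times as high as any labelled wild type. Its call was the weakest of the 11: it was lost without knockout-labelled replicate 1, 2 or 4 (adjusted p = 0.0614, 0.0549 and 0.0721) and without wild-type-labelled replicate 1, 2 or 3 (adjusted p = 0.0786, 0.0907 and 0.0553). Rtp4 (chr16:23520291-23614222, + strand), a receptor transporter protein, had 63.8, 57.2, 52.4 and 11.1 CPM in libraries labelled knockout and was listed at 0 in all 3 labelled wild type (log2 fold change 5.30, SE 0.84, limma adjusted p = 0.00387). As for Ifit1, this fitted value depends on the pseudocount of 1 and is not a measured fold. Over the alternative settings given below it ran from 3.16 to 8.58. Xaf1, a pro-apoptotic binding partner of XIAP, had 26.2, 25.7, 26.4 and 37.9 CPM in libraries labelled knockout and 18.7, 12.9 and 7.75 CPM in libraries labelled wild type; the groups did not overlap, but it was not called (log2 fold change 1.15, SE 0.49, limma adjusted p = 0.163). Parp14, an ADP-ribosyltransferase, had 64, 5.88, 19.7 and 10.9 CPM in libraries labelled knockout and 30.9, 24.5 and 79.96 CPM in libraries labelled wild type, with overlap (log2 fold change -1.15, SE 0.79, limma adjusted p = 0.385). Usp18, which removes Isg15 from proteins and damps receptor signalling, Ifi35 and Parp9 were not called, with log2 fold changes of 0.70, 0.23 and 0.40.

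The PYHIN genes encode DNA-binding proteins of the HIN-200 family. Ifi209 (chr1:173630917-173647928, + strand) had the smallest adjusted p of the members. It had 481, 480.1, 478 and 469 CPM in libraries labelled knockout and 71.3, 74.9 and 61 CPM in libraries labelled wild type (log2 fold change 2.78, SE 0.15, limma adjusted p = 1.64e-05), and the values within each group were close together. Its sequence is partly shared with Ifi214 (33.4% of 50-base exonic sequences). Ifi203 had 60.4, 92.9, 185 and 85.4 CPM in libraries labelled knockout and 51.8, 83.2 and 79.6 CPM in libraries labelled wild type and was not called (log2 fold change 0.47, SE 0.38, limma adjusted p = 0.464). Ifi213 had a mean under 10 CPM and was not tested in this comparison.

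Among the interferon-inducible GTPases, which act on the vacuoles of intracellular pathogens, Ifi47 (chr11:49076587-49096974, + strand) was called. It had 129, 104, 134 and 114 CPM in libraries labelled knockout and 40.9, 36.6 and 25.6 CPM in libraries labelled wild type, without overlap (log2 fold change 1.80, SE 0.26, limma adjusted p = 0.00255). Gbp7 and Igtp were not called, with log2 fold changes of 0.61 and 0.58 and overlapping groups. Of the remaining genes, Ifi27l2a (chr12:103442167-103443680, - strand), a small membrane protein gene, had 60.6, 83.7, 53.3 and 83.7 CPM in libraries labelled knockout and 19.8, 27 and 22.9 CPM in libraries labelled wild type (log2 fold change 1.54, SE 0.32, limma adjusted p = 0.0139). Phf11b (chr14:59320964-59341351, - strand), a PHD finger gene, had 144, 88.4, 102 and 86 CPM in libraries labelled knockout and 3.47, 8.83 and 0 CPM in libraries labelled wild type (log2 fold change 4.88, SE 0.73, limma adjusted p = 0.00323). Neither gene overlapped between groups, and 47.0% of the 50-base exonic sequences of Phf11b occur in other genes, most of them Phf11a. Its neighbour Phf11d had a mean under 10 CPM and was not tested.

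Without both knockout-labelled replicate 1, the library with the highest level of haemoglobin transcripts, and wild-type-labelled replicate 3, 5 members were called higher. Ifi209, Samhd1, Ifi47, Phf11b and Trim30a remained. The other 6 kept their direction, with adjusted p of 0.0532 (Rtp4), 0.0579 (Ifit1), 0.0805 (Irf7), 0.0827 (Ifi27l2a), 0.116 (Ifit3) and 0.117 (Isg15).

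**Figure D3:**
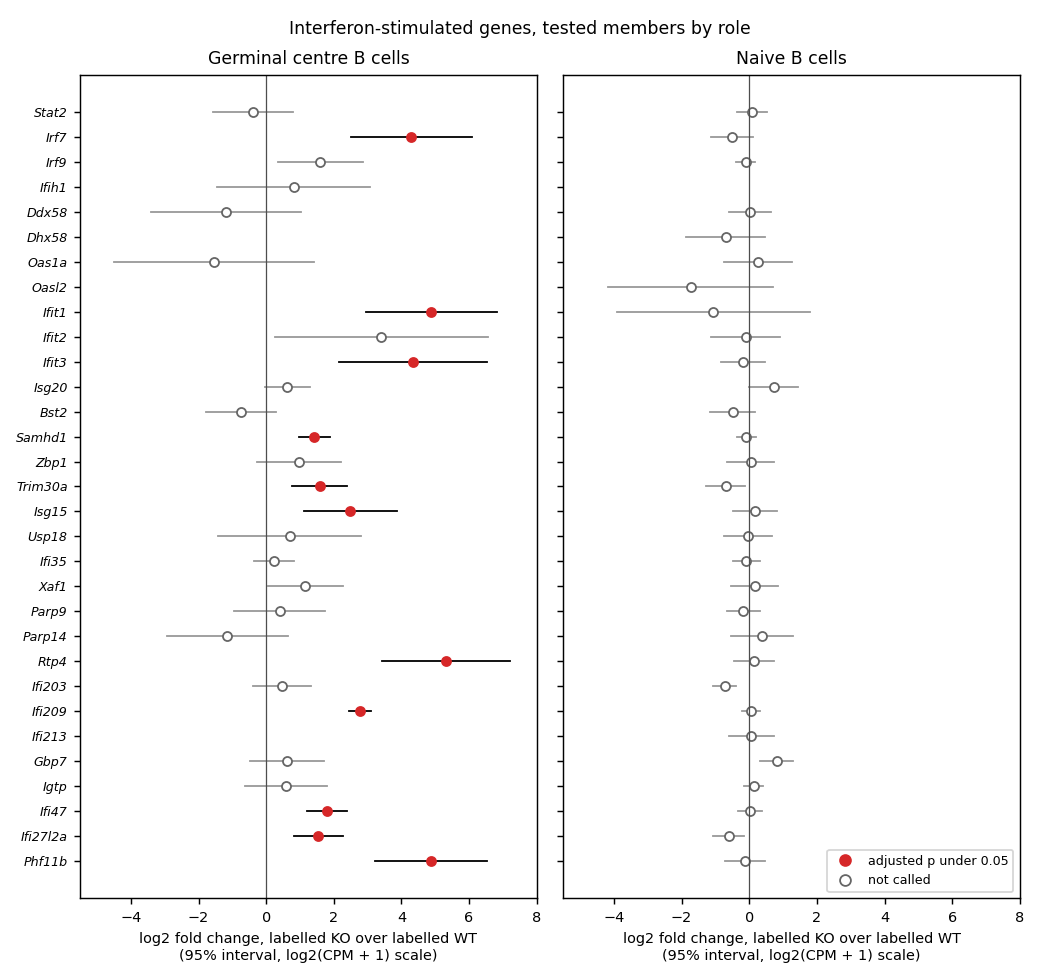
Log2 fold change of each tested member with its 95% interval, labelled knockout over labelled wild type, on the log2(CPM + 1) scale, in germinal centre B cells (left) and naive B cells (right). Filled red points have an adjusted p under 0.05: 11 of 28 in germinal centre B cells, all to the right of 0, and 0 of 30 in naive B cells.

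In naive B cells none of the interferon-stimulated genes was called between libraries labelled knockout and labelled wild type. Of 30 members tested, 14 had a positive log2 fold change and the median was -0.06, against -0.01 over all 8832 genes tested. By limma, 0 members and 0.0% of all genes were called in either direction, and the smallest adjusted p of any gene was 0.728; no other test was run on these values. At an unadjusted p under 0.05, 4 members were found (1 higher, 3 lower) among 587 genes, beside 3.68% of all genes higher and 2.97% lower. The summed level of 35 members was 2250.1 ± 209 CPM under the knockout label and 2398 ± 140.4 CPM under the wild type label (SD, n = 3 each). Library values did not overlap for 2 of the 30 members higher under the knockout label (Isg20 and Gbp7), beside 5.99% of all genes, and for 4 lower (Bst2, Ifi27l2a, Samhd1 and Ifi203), beside 7.61%.

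The 4 members with an unadjusted p under 0.05 were Ifi203, Trim30a, Ifi27l2a and Gbp7. Ifi203 had 147, 174 and 137 CPM in naive libraries labelled knockout and 246.1, 223.3 and 292 CPM in those labelled wild type, without overlap (log2 fold change -0.73, SE 0.15, limma adjusted p = 0.728). Gbp7, a guanylate-binding protein gene, ran the other way, with 82.5, 92.1 and 67.8 CPM in naive libraries labelled knockout and 36.8, 46.5 and 54.6 CPM in those labelled wild type (log2 fold change 0.81, SE 0.21, limma adjusted p = 0.73). Trim30a and Ifi27l2a had log2 fold changes of -0.69 and -0.60, opposite in sign to those in germinal centre B cells. The fold changes past 1 in size came from low and scattered values. Oasl2 had 7.62, 0 and 21.9 CPM in naive libraries labelled knockout and 22.7, 12.7 and 21.5 CPM in those labelled wild type (log2 fold change -1.73, SE 1.05, limma adjusted p = 0.776). Ifit1 had 10.7, 44 and 0 CPM in naive libraries labelled knockout and 17.1, 19.97 and 11.5 CPM in those labelled wild type (log2 fold change -1.06, SE 1.23, limma adjusted p = 0.881), and its sign turned to 0.45 without knockout-labelled replicate 3, where it was at 0. Mx1, Oas2, Oas3, Rsad2, Ifi44, Ifih1 and Phf11d had means under 10 CPM and were not tested.

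Whether the labelled knockout over wild type fold change differed between germinal centre and naive B cells was tested in 1 fit of all 13 libraries. Of 30 members tested, 12 were called higher and none lower, beside 5.02% of all 8871 genes called higher and 2.82% called lower. The members' median difference was 1.35 on the log2 scale, against -0.02 over all genes. The 12 were the 11 genes called in germinal centre B cells and Ifi213. Their differences are log2 differences of differences: 4.79 (SE 0.74, limma adjusted p = 0.00186) for Irf7, 5.95 (SE 1.47, limma adjusted p = 0.0266) for Ifit1, 5.17 (SE 0.79, limma adjusted p = 0.0018) for Rtp4, 4.996 (SE 0.87, limma adjusted p = 0.00389) for Phf11b and 2.71 (SE 0.16, limma adjusted p = 1.68e-06) for Ifi209. For Samhd1, Ifi47, Ifi27l2a, Trim30a, Isg15 and Ifit3 they ran from 1.51 to 4.53, with adjusted p of 0.00183 to 0.0256.

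Ifi213, another PYHIN gene, had 27.4, 12.7, 13 and 2.28 CPM in germinal centre libraries labelled knockout and 0, 0 and 0.158 CPM in those labelled wild type. It had 58.4, 76.4 and 40.1 CPM in naive libraries labelled knockout and 39.8, 64.8 and 61.2 CPM in naive libraries labelled wild type, and its difference was 3.40 (SE 0.90, limma adjusted p = 0.037). That call was lost without any of 11 of the 13 libraries, with adjusted p of 0.0515 to 0.0964, the exceptions being knockout-labelled germinal centre replicates 1 and 4. It was also lost at a pseudocount of 5 (adjusted p = 0.137) and with no filter on low values (0.05005). Ifi213 was under the filter in germinal centre libraries and entered the joint fit with the naive libraries. In the same fit, Ifit1 lost its call without any of the 6 wild-type-labelled libraries of either cell type (adjusted p = 0.0512 to 0.0649), and at a pseudocount of 5 (0.0599). Ifit3 lost it without wild-type-labelled germinal centre replicate 2 or 3, knockout-labelled naive replicate 1 or 3, or wild-type-labelled naive replicate 2 or 3 (0.0512 to 0.0558). Isg15 lost it without wild-type-labelled germinal centre replicate 2, knockout-labelled naive replicate 1 or 3, or wild-type-labelled naive replicate 1 or 3 (0.0521 to 0.0768). Among members not called, the difference was 4.78 for Oasl2 (adjusted p = 0.0985), 3.51 for Ifit2 (0.210), 1.71 for Irf9 (0.146), 1.198 for Ifi203 (0.144), -1.80 for Oas1a (0.565), -1.52 for Parp14 (0.441) and -1.21 for Ddx58 (0.641), all by limma.

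The genes upstream of the response were described with a second list. Of its 27 receptors, kinases, transcription factors, sensors, regulators and interferons, 19 were tested in germinal centre B cells, with a median log2 fold change of -0.03. None was called lower in libraries labelled knockout, beside 5.09% of all genes, a share at which 0 of 19 is not unusual. Ptpn6 was called higher. It encodes the phosphatase SHP-1, with 630.1, 400.7, 530.5 and 533 CPM in libraries labelled knockout and 339.6, 272 and 292 CPM in libraries labelled wild type (log2 fold change 0.78, SE 0.18, limma adjusted p = 0.0186), named here after its value was seen. The receptor chain gene Ifnar1 had 17.8, 17.4, 5.04 and 0 CPM in libraries labelled knockout and 89.2, 38.8 and 22.7 CPM in libraries labelled wild type and was not called (log2 fold change -2.70, SE 1.07, limma adjusted p = 0.135). Ifnar2 was not called either (log2 fold change -0.84, SE 0.47, limma adjusted p = 0.285).

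Irf1, a factor induced mainly by interferon gamma, had 62.9 ± 18.4 CPM in the 4 libraries labelled knockout, against 32.5 ± 13.5 CPM in the 3 labelled wild type (SD; log2 fold change 0.95, SE 0.40, limma adjusted p = 0.157), and Irf8 gave -0.29 (adjusted p = 0.278). Socs1, the feedback inhibitor of the receptor kinases, had 6.27, 0.0555, 0 and 10.9 CPM in libraries labelled knockout and 32.8, 13.9 and 41.7 CPM in libraries labelled wild type and was not called (log2 fold change -3.17, SE 1.10, limma adjusted p = 0.0933). Ifng itself, chosen after its values were seen, was listed at 4.95, 9.69, 11 and 8.66 CPM in libraries labelled knockout and 0 in each library labelled wild type, below the level for testing. T cells are known to produce interferon gamma; their markers were also higher in these libraries, as given above, and their part in the Ifng values was not tested. None of 22 upstream genes tested in naive B cells was called, beside 0.0% of all genes. In the difference of the 2 effects, Ptpn6 was called higher and none of 20 was called lower, beside 2.82% of all genes called lower.

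A further list of 74 interferon-induced genes outside the 37 was counted in the same way. In germinal centre B cells, of 52 tested, 8 were called higher and 2 lower in libraries labelled knockout, beside the 8.54% and 5.09% of all genes given above, and their median log2 fold change was 0.15. The largest changes were in Ifit1bl1, a relative of Ifit1, with 40.9, 111, 50.4 and 74.2 CPM in libraries labelled knockout and 0 in each library labelled wild type (log2 fold change 6.03, SE 0.65, limma adjusted p = 0.000752), and in Slfn1, a Schlafen gene, with 35.8, 55.3, 46.1 and 43.3 CPM in libraries labelled knockout and 0 in each library labelled wild type (log2 fold change 5.51, SE 0.66, limma adjusted p = 0.00121). Both fitted values are against a group at 0, so they depend on the pseudocount of 1 and are not measured folds. The guanylate-binding protein gene Gbp6 had 39, 63.6, 29.2 and 43.4 CPM in libraries labelled knockout and 11.5, 0.0671 and 0.00226 CPM in libraries labelled wild type (log2 fold change 4.18, SE 0.95, limma adjusted p = 0.0198). Ifi214, the PYHIN gene that shares sequence with Ifi209, had 30.5, 20.6, 62.3 and 39.2 CPM in libraries labelled knockout and 0.58, 1.22 and 5.13 CPM in libraries labelled wild type (log2 fold change 3.71, SE 0.73, limma adjusted p = 0.0106).

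Ifitm3, a membrane protein that blocks virus entry, had 79.99, 33.9, 11 and 47.1 CPM in libraries labelled knockout and 2.36, 3.94 and 2.85 CPM in libraries labelled wild type (log2 fold change 3.16, SE 0.74, limma adjusted p = 0.0226). Both genes called lower ran against these. Ms4a4c, a membrane-spanning gene, had 97.9, 104, 144 and 49.3 CPM in libraries labelled knockout and 628, 388 and 262 CPM in libraries labelled wild type (log2 fold change -2.10, SE 0.39, limma adjusted p = 0.00828), and Gbp4, named after its value was seen, had 103, 217, 81.7 and 81.9 CPM in libraries labelled knockout and 269, 317 and 219.6 CPM in libraries labelled wild type (log2 fold change -1.26, SE 0.34, limma adjusted p = 0.0412). In naive B cells 0 of 50 genes of this list were called.

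Levels across the 6 groups are a description, since the 4 tables were made separately, and they compare the same gene between groups. Summed over 35 members, the level was 304 ± 3.91 CPM in bone marrow antibody-secreting cells, 652 ± 53.0 CPM in spleen antibody-secreting cells, 2421 ± 90.7 CPM in germinal centre libraries labelled knockout, 967 ± 35.3 CPM in those labelled wild type, 2250.1 ± 209 CPM in naive libraries labelled knockout and 2398 ± 140.4 CPM in those labelled wild type (SD over 3 libraries, 4 for germinal centre labelled knockout). Immunoglobulin transcripts took 65.0% to 70.2% of reads in bone marrow and 61.5% to 66.2% in spleen antibody-secreting cells, against 2.35% to 13.2% in the other groups, which lowers the CPM of every other gene there. As CPM over genes other than immunoglobulin, the sum was 941 ± 81.9 in bone marrow and 1785 ± 221.8 in spleen antibody-secreting cells. On that scale it was 2559 ± 55.9 in germinal centre libraries labelled knockout and 1088 ± 78.9 in those labelled wild type, and 2342 ± 219 in naive libraries labelled knockout and 2502 ± 144 in those labelled wild type.

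By group mean in CPM, 24 of the 37 members were lowest in bone marrow antibody-secreting cells alone and 5 in germinal centre libraries labelled wild type alone, while 6 (Ifit1, Mx1, Oas2, Oas3, Rtp4 and Ifi44) were at 0 in bone marrow and in at least 1 other group. With immunoglobulin genes left out of the scale, 16 were lowest in bone marrow alone and 10 in germinal centre libraries labelled wild type alone. The highest mean in CPM was in germinal centre libraries labelled knockout for 13 members, in naive libraries labelled wild type for 13 and labelled knockout for 8, in germinal centre libraries labelled wild type for 2, and in spleen antibody-secreting cells for Isg15. On the scale without immunoglobulin genes, spleen antibody-secreting cells had the highest mean of 6 members: Isg15, Isg20, Ifi27l2a, Bst2, Zbp1 and Igtp. Germinal centre libraries labelled wild type were below naive libraries labelled wild type without overlap for 17 of 28 members with a mean of at least 10 CPM, beside 29.0% of all 8820 genes, and above them for Isg20 alone, beside 31.6%. Of the 17, Irf7, Ifit2, Ifit3, Isg15, Usp18, Dhx58, Rtp4, Ifi213 and Phf11b averaged 0 to 8.06 CPM in germinal centre libraries labelled wild type. They passed the filter only through the naive libraries, where they were high. The others of the 17 averaged above 10 CPM in both groups. As CPM over genes other than immunoglobulin, 17 were below, beside 27.4%, and 4 above, beside 33.2%: Isg20, Ifi35, Parp14 and Samhd1. Germinal centre libraries labelled knockout were above naive libraries labelled knockout for 4 of 30 members (Isg20, Xaf1, Samhd1 and Phf11b), beside 25.7% of 8732 genes, and below them for 4 (Stat2, Irf9, Ifi47 and Ifi213), beside 22.6%. Isg20 had 76.1, 109.7, 129 and 99.7 CPM in germinal centre libraries labelled knockout and 22.7, 37.5 and 30.6 CPM in naive libraries labelled knockout.

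**Figure D4:**
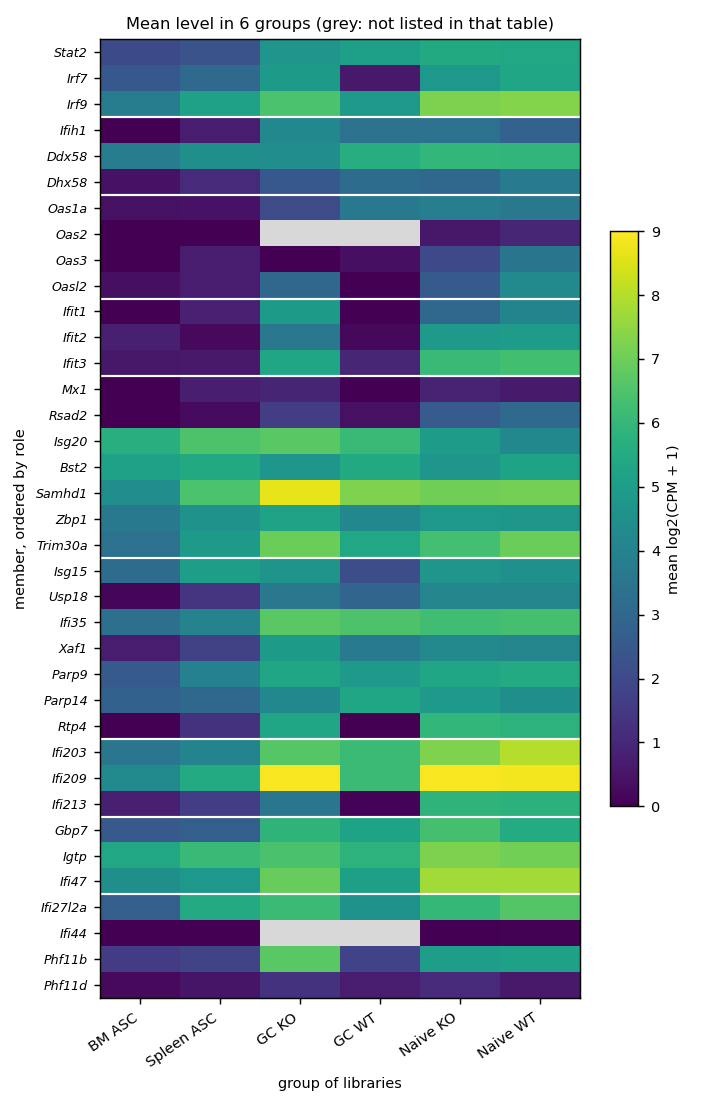
Mean log2(CPM + 1) of the 37 members (rows, ordered by role, white lines between roles) in 6 groups of libraries (columns; ASC, antibody-secreting cells; BM, bone marrow). Grey cells are genes that the germinal centre table does not list; in CPM, 24 members had their lowest group mean in bone marrow alone.

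Bone marrow antibody-secreting cells had lower levels than spleen antibody-secreting cells for 11 of 15 members with a mean of at least 10 CPM and no overlap between the 3 libraries of each, beside 28.7% of all 4091 genes. None was higher without overlap, beside 0.733%. Of the 11, Isg15, Ifi27l2a, Parp9 and Trim30a averaged under 10 CPM in bone marrow. They passed this filter only through the spleen libraries, where they averaged above 10 CPM. The others of the 11 averaged above 10 CPM in both groups. The median difference of log2 group means was -0.93 over the 15 members and -0.40 over all genes. As CPM over genes other than immunoglobulin, 8 of 19 members were lower without overlap, beside 17.2% of 7594 genes, and 0 higher, beside 2.29%, with medians of -0.58 for the members and -0.22 for all genes. Those 8, lower on both scales, were Irf9, Isg15, Isg20, Ifi27l2a, Trim30a, Samhd1, Ifi203 and Ifi209. On the scale without immunoglobulin genes, all 8 averaged above 10 in both groups. No test was run between these groups, so these are descriptions.

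Ifi27l2a showed the widest gap of the 8, with 5.31, 5.67 and 6.02 CPM in bone marrow and 47.6, 30.5 and 62 CPM in spleen antibody-secreting cells. As CPM over genes other than immunoglobulin it had 16.2, 19.1 and 17.2 in bone marrow and 126, 90.2 and 161 in spleen, so that the lowest spleen library was more than 4 times the highest from bone marrow. Samhd1 had 26.5, 20.3 and 15.8 CPM in bone marrow and 100.1, 66 and 99.4 CPM in spleen antibody-secreting cells. Isg15 had 7.2, 12.2 and 5.85 CPM in bone marrow and 29, 28.4 and 40.8 CPM in spleen, and Isg20 had 51.2, 49 and 47.9 CPM in bone marrow and 68.7, 128 and 80.5 CPM in spleen. Of the 37 members, 8 were listed at 0 in every bone marrow library: Ifit1, Mx1, Oas2, Oas3, Rsad2, Ifi44, Ifih1 and Rtp4. Neutrophil markers summed to 41.4 to 230.1 CPM in bone marrow and 0.0610 to 25.8 CPM in spleen antibody-secreting cells, and their part in these differences was not tested.

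Spleen antibody-secreting cells were below naive B cells labelled wild type without overlap for 20 of 24 members in CPM, close to the 83.7% of all 7645 genes, and above them for 2, Isg15 and Isg20, beside 5.56%. Of the 20, Stat2, Irf7, Ifit2, Ifit3, Rtp4, Parp14, Ifi213, Phf11b and Gbp7 averaged 0.203 to 7.90 CPM in spleen antibody-secreting cells. They passed the filter of 10 CPM only through the naive libraries, where they were high. Isg20 had 68.7, 128 and 80.5 CPM in spleen antibody-secreting cells and 20.5, 12.5 and 20.9 CPM in wild-type-labelled naive B cells. Isg15 had 29, 28.4 and 40.8 CPM in spleen antibody-secreting cells and 27.3, 17.5 and 21.5 CPM in wild-type-labelled naive B cells. As CPM over genes other than immunoglobulin, 16 of 27 members were lower, beside 45.8% of 8589 genes, and 5 were higher, beside 13.3%: Isg15, Isg20, Bst2, Zbp1 and Samhd1. On that scale Bst2, which tethers budding virus to the cell surface, had 85.6, 131 and 146 in spleen antibody-secreting cells and 38.9, 37.9 and 35.9 in wild-type-labelled naive B cells. The Ifit genes lay at the other end, with Ifit3 at 0, 7.44 and 0 in spleen antibody-secreting cells and 58.5, 95.5 and 89 in wild-type-labelled naive B cells on that scale.

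**Figure D5:**
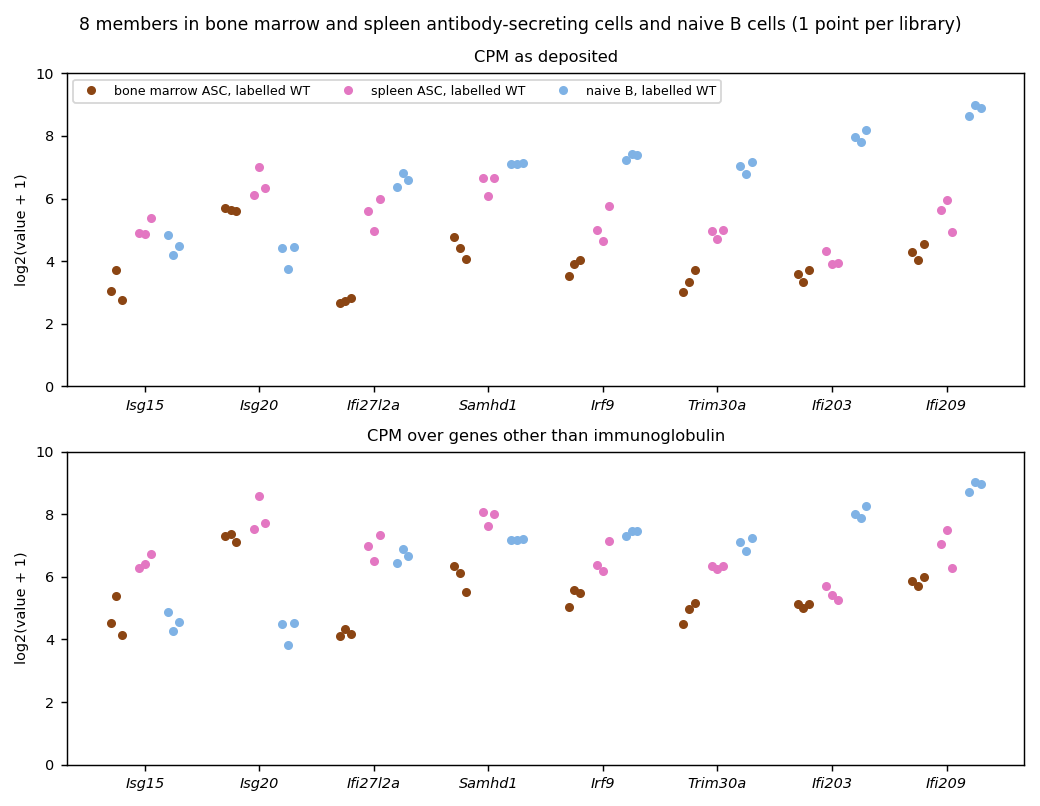
Level of 8 members in bone marrow antibody-secreting cells, spleen antibody-secreting cells and naive B cells labelled wild type, 1 point per library, as log2(value + 1) of CPM as deposited (top) and of CPM over genes other than immunoglobulin (bottom). On both scales all 3 bone marrow points lie below all 3 spleen points for each of the 8 genes.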

How the data were processed

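RNA-seq libraries (19) were grouped by their sample labels, with the genotype as labelled. The submitters' processing notes name STAR and mm10, without a version; which counter, annotation and strand setting were used is not given in the sources used here. The authors deposited expression as CPM, each column summing to 1000000, in 4 tables. An offset of 0.0001 was subtracted in the germinal centre table, and 19 rows whose names had become dates were left out of each other table. Among values below 1000 reads, 61.5% to 67.7% (germinal centre) and 85.2% to 88.8% (other tables) were within 0.02 of a whole read, so no count test was used. Floors and steps cover counting error only.

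The limma fits took genes averaging 10 CPM or more, with limma 3.58.1 (trend, R 4.3.3) on log2(CPM + 1), two-sided, with no covariate, within each table; the difference of effects used a term per group over both tables, so that each effect is a contrast within 1 table. The tables were made separately. Benjamini-Hochberg adjustment ran over all genes tested, and adjusted p under 0.05 was called. The pseudocount shrinks the fold changes of low genes. The step was tested on simulated data. Levels across groups were summarised in Python 3.11.15 with pandas 2.3.3 (figures: matplotlib 3.10.9), with no test. Promoters came from RefSeq (GRCm38.p6) and positions from GENCODE M21. Shared sequence is the share of 50-base stretches of a gene's exons found in exons of other genes.

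The members, lists, tests and alternatives were chosen with earlier results of these data known. All 37 members are accounted for; full values are given for members called in a comparison and for tested members with an absolute log2 fold change of at least 1, for 5 upstream genes (a further 1 is not reported here), and for the 6 called genes of the further list with the largest change. Alternatives covered the pseudocount, filter, scaling, weights, robust estimation, threshold, a replicate block and leaving out libraries; scaling without immunoglobulin genes was chosen after seeing the data.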

Additional observations from a re-analysis of the deposited data

Results flagged for a closer look

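In 7 of 34 members checked over the 4 germinal centre libraries labelled knockout, 1 library stood far from the rest. The rule used flags about 1 in 20 groups of normally distributed values. Whether these CPM values, some at or near 0, are so distributed was not tested, so no excess over chance is claimed. Knockout-labelled replicate 4 was the highest for Ifit1 (85.8 CPM), Ifit3 (117 CPM) and Xaf1 (37.9 CPM), and the lowest for Ifi35 (67.6 CPM). Knockout-labelled replicate 1 was the highest for Mx1 (11.8 CPM) and Phf11d (5.55 CPM). Knockout-labelled replicate 3 was the lowest for Oasl2 (0 CPM). What these libraries share besides their labels was not tested.

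For 12 members the effect of the label differed between germinal centre and naive B cells by the test of the difference itself, on the log2 scale and always higher in germinal centre B cells. The difference was 5.95 for Ifit1, 5.17 for Rtp4, 4.996 for Phf11b, 4.79 for Irf7, 4.53 for Ifit3, 3.40 for Ifi213, 2.71 for Ifi209, 2.31 for Isg15, 2.27 for Trim30a, 2.14 for Ifi27l2a, 1.78 for Ifi47 and 1.51 for Samhd1. The germinal centre libraries labelled wild type had 3 of 7 germinal centre markers at 0, so the label and the cell content of these libraries cannot be told apart.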

How the results depend on the processing

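Over 19 alternatives for germinal centre B cells, 16 for naive B cells and 24 for their difference, no called member changed sign. Ifi209, Samhd1, Ifi47 and Phf11b were called under all 19 in germinal centre B cells, and Isg15 under 11. The count of genes called in germinal centre B cells was 603 to 1134 when 1 library was left out, lowest without wild-type-labelled replicate 2 (replicate 1, 732; replicate 3, 712), and 432 without both knockout-labelled replicate 1 and wild-type-labelled replicate 3, against 1162. Members called higher numbered 8 to 11 with 1 library left out, 5 without both, and 12 with a filter of 1 CPM or at an adjusted p under 0.10 (1720 genes). The members' median log2 fold change was 1.26 under quantile normalization, 0.87 without both and 0.91 to 1.28 with 1 library left out; for the difference it was 1.10 to 1.47. Naive Ifit1, not called, turned to 0.45 without knockout-labelled replicate 3 (range -2.30 to 0.45). In the difference, 8 to 13 members were called. With immunoglobulin genes left out of the scale, members above naive B cells without overlap numbered 5 in place of 2 in spleen antibody-secreting cells, and 4 in place of 1 in germinal centre libraries labelled wild type. The cause of these changes was not tested. A replicate block gave 831 genes and 10 members in germinal centre B cells, 0 in naive B cells, and 653 genes and 11 members in the difference. Under it Isg15 (adjusted p = 0.113) and Ifi27l2a (0.0584) were not called in germinal centre B cells and Irf9 was (0.0446), and Isg15 was not called in the difference (0.0690). Same-numbered libraries deviated together with correlations of only -0.047 to 0.079, and not every library correlated best with its own number, so the block marks a shared number alone. Few libraries and low levels limit what can be seen: 7 listed members in the germinal centre table and 7 in the naive table had means under 10 CPM. Libraries of a group were also less alike in germinal centre B cells. Their log2(CPM + 1) values correlated at 0.643 to 0.716 under the knockout label and 0.788 to 0.849 under the wild type label. In naive B cells these correlations were 0.875 to 0.901 and 0.891 to 0.911.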

Other observations

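The gamma-activated site, TTC followed by any 3 bases and GAA, searched on both strands, was in a RefSeq promoter of 8 of 28 members, against 9.55% of 27025 genes. It was in Samhd1 alone of the 9 called members with a promoter, and in Ifit2, Isg20, Oas1a, Bst2, Ifi35, Gbp7 and Igtp among the other 19. A match is a description and not a binding site.

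The number of members above a floor of 3 reads differed between groups. Of 35 members listed in every table, 22 to 27 were above it in bone marrow antibody-secreting cells and 27 to 33 in spleen antibody-secreting cells. In germinal centre libraries 29 to 34 were above it under the knockout label and 26 to 27 under the wild type label. In naive libraries 32 to 34 were above it under the knockout label and 34 to 35 under the wild type label. Of these 35, 6 were at 0 in every bone marrow library, 1 in every germinal centre library labelled knockout and 4 in every one labelled wild type. Depth differs between libraries, so these counts carry it.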
